A study of Mus musculus with 4 samples.

Results

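The genes described here make, bind, activate or receive transforming growth factor β (TGF-β). They are 10 of the 49315 genes in the count table, taken by name: the ligands *Tgfb1*, *Tgfb2* and *Tgfb3*, the receptors *Tgfbr1*, *Tgfbr2* and *Tgfbr3*, the latent binding proteins *Ltbp1* and *Ltbp4*, and the integrin subunits *Itgav* and *Itgb8*. TGF-β is secreted in an inactive form, held by its own propeptide and tethered to the matrix by latent binding proteins or to cells by membrane anchors. Integrins that carry the αv chain bind the propeptide and can make the ligand active. Active ligand joins the type II and type I receptor kinases and signals through SMAD proteins. In the lung this pathway is known for driving fibroblasts to lay down matrix, and in lymphocytes for restraint of activation and for tissue residency.

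RNA-Seq was performed on type 2 innate lymphoid cells (ILC2s), lymphocytes without antigen receptors, sorted from mouse lungs and kept in culture with IL-2 until RNA was extracted. The study compared WT C57BL/6 mice with *Hps1*-/- mice, congenic on the same background and a model of Hermansky-Pudlak syndrome, after PBS or after bleomycin, a drug that injures the lung and leads to fibrosis. The groups are PBS-WT (WT mice given PBS), PBS-HPS1 (*Hps1*-/- mice given PBS), BLEO-WT (WT mice given bleomycin) and BLEO-HPS1 (*Hps1*-/- mice given bleomycin). Each group had 1 library, so no difference has a replicate check and no p-value is given. The sources used here do not tie a bleomycin route, dose, time point or mouse age to these libraries, and they do not give the number of mice pooled in each. The sort kept cells negative for lineage markers and positive for Thy1.2, ICOS and T1/ST2, and 22405 cells went into PBS-WT, 38873 into PBS-HPS1, 84166 into BLEO-WT and 128647 into BLEO-HPS1. The number of cells differed between all groups, and its part in a difference cannot be told apart from genotype and treatment.

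The libraries held 72513619 counted reads in PBS-WT and 77703133 in PBS-HPS1, and 87638154 in BLEO-WT beside 77428740 in BLEO-HPS1. Levels are CPM, which give a gene's share of the reads of its library after scaling with a TMM factor, and 3 reads correspond to 0.0385, 0.0303, 0.0383 and 0.0475 CPM in the same order. Where 4 values are listed without names, this order holds: PBS-WT first, then PBS-HPS1, then BLEO-WT, and BLEO-HPS1 last. Ratios are log2 ratios of CPM with a prior count of 2, and a gene is called when the ratio is at least 2-fold. The genotype ratio is *Hps1*-/- over WT within a treatment, and the bleomycin ratio is bleomycin over PBS within a genotype. The 95% intervals are exact Clopper-Pearson intervals of the reads in both libraries. They cover counting error only, and not the spread between mice or libraries, since each group has 1 library. Where PCR copies of a molecule were counted as separate reads, the intervals are too narrow even for that error. In at least 1 library, 14840 genes reached 1 CPM, and all 10 TGF-β genes were among them.

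The targeted gene was examined first. *Hps1* was at 38.3 CPM in PBS-WT and 16.6 in PBS-HPS1, and 48.4 in BLEO-WT beside 21.3 in BLEO-HPS1. Both *Hps1*-/- libraries were lower than both WT libraries, as labelled, by 2.30-fold with PBS and 2.27-fold with bleomycin. Reads remained on the gene, and the counts do not show on which part of the transcript.

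In every comparison the ratios went with transcript length, GC content or both, which is given before the results. Over 11133 genes, the genotype log2 ratio after bleomycin had a Spearman's rho of 0.609 with transcript GC content and -0.493 with transcript length. For BLEO-HPS1 against PBS-HPS1 these were 0.602 and -0.517, for BLEO-WT against PBS-WT 0.485 and -0.256, and for PBS-HPS1 against PBS-WT -0.0726 and 0.429. Genes are not independent replicates, and these values are a description of the libraries. *Ltbp4* has the highest GC content of the 10 genes at 62.2%, and the lowest are *Itgb8* at 40.4%, *Tgfbr1* at 41.0% and *Itgav* at 43.5%. Each ratio was therefore also computed after GC content and length were corrected for with loess, called the corrected ratio below. Scaling moved the ratios too: with total counts in place of TMM the median log2 ratio of all genes shifted by 0.24 in PBS-HPS1 against PBS-WT, by -0.26 in BLEO-WT against PBS-WT, by -0.64 in BLEO-HPS1 against PBS-HPS1 and by -0.13 in BLEO-HPS1 relative to BLEO-WT. The share of called genes that was higher moved with it, from 41.0% to 65.9%, from 39.1% to 20.1%, from 57.2% to 21.9% and from 39.5% to 26.1% in these comparisons. Taken relative to the median of all genes, the TGF-β genes at least 0.5 away from it with TMM were, in BLEO-HPS1 relative to BLEO-WT, *Ltbp4* at 1.83, *Tgfb3* at 1.23, *Ltbp1* at 0.83, *Itgav* at -0.90 and *Tgfbr1* at -1.65. In BLEO-HPS1 against PBS-HPS1 they were *Tgfb3* at 0.88, *Tgfb1* at 0.80, *Ltbp4* at 0.78, *Itgav* at -0.58, *Itgb8* at -0.90, *Tgfb2* at -1.57 and *Tgfbr1* at -1.90. In BLEO-WT against PBS-WT they were *Tgfb3* at 0.77, *Itgb8* at -1.08 and *Tgfb2* at -1.60, and in PBS-HPS1 against PBS-WT *Tgfb3* at 1.11, *Ltbp4* at 1.0 and *Ltbp1* at 0.56.

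**Figure D1:**
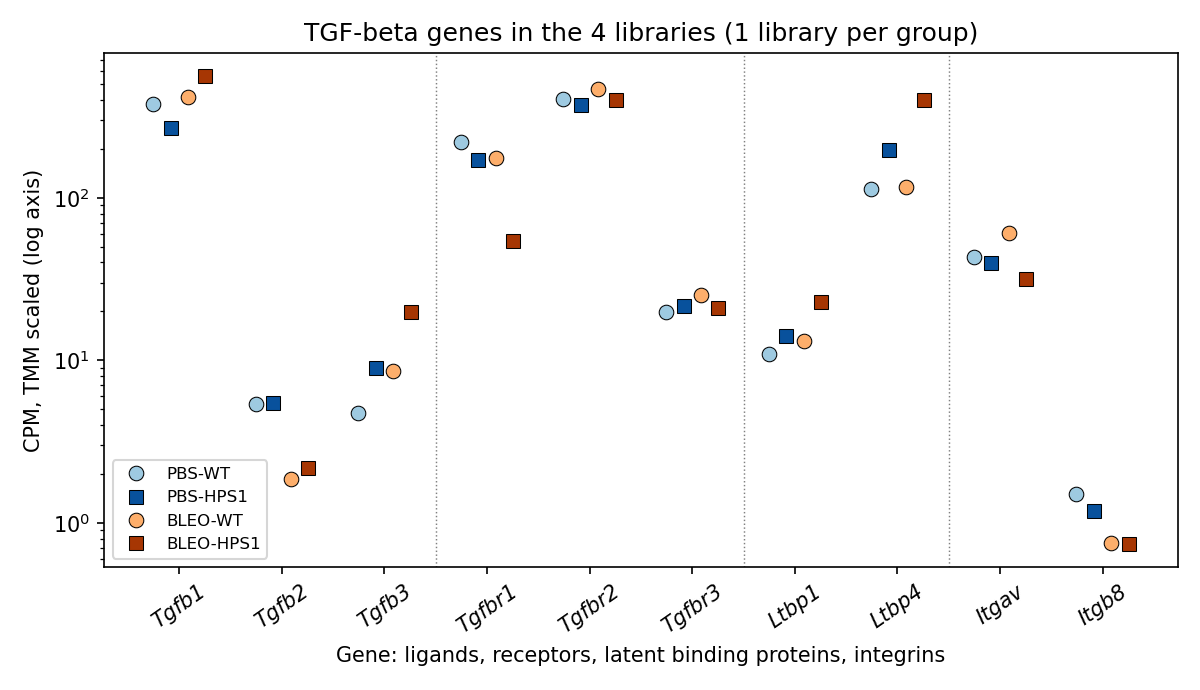
Level of each TGF-β gene in each of the 4 libraries, in CPM on a log axis, with 1 point per library and dotted lines between the roles. *Tgfb3*, *Ltbp1* and *Ltbp4* are highest in BLEO-HPS1, at 19.7, 22.7 and 400.4 CPM, and *Tgfbr1* is lowest there, at 54.1 CPM.

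Of the ligands, *Tgfb1* made up nearly all of the ligand RNA. This gene encodes the isoform most common in leukocytes and lies on the plus strand of chromosome 7 of GRCm38 from 25687002 to 25705077. It was at 380.2 CPM in PBS-WT and 269 in PBS-HPS1, and 417 in BLEO-WT beside 559 in BLEO-HPS1. BLEO-HPS1 was highest and PBS-HPS1 lowest under all 6 settings, which are TMM, DESeq2 size factors, total counts, the 2 other prior counts and the correction, while the order of PBS-WT and BLEO-WT turned with total counts and with the correction. The ratio of BLEO-HPS1 to PBS-HPS1 was 1.05 (95% interval 1.03 to 1.08), which is 2.08-fold, and it was 0.48 corrected and 0.41 with total counts. In WT mice the bleomycin ratio was 0.13 (0.11 to 0.15), and it was -0.02 corrected and -0.13 with total counts. After bleomycin, the genotype ratio was 0.42 (0.40 to 0.45), 1.34-fold, and 0.05 corrected. In CPM per kb of merged exons, *Tgfb1* made up 97.0% of the summed ligand level in PBS-WT and 93.7% in PBS-HPS1, and 96.6% in BLEO-WT beside 94.7% in BLEO-HPS1.

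*Tgfb2*, which encodes an isoform known from epithelium and development, was low in all libraries and lower after bleomycin in both genotypes. It lies on the minus strand of chromosome 1 from 186622792 to 186705989 and had 417 reads in PBS-WT and 543 in PBS-HPS1, and 146 in BLEO-WT beside 138 in BLEO-HPS1, or 5.35, 5.48, 1.86 and 2.18 CPM. Both bleomycin libraries were below both PBS libraries under all 6 settings. With TMM, neither the PBS pair nor the bleomycin pair differed beyond its counting interval. The genotype ratio after bleomycin was 0.23 (-0.12 to 0.58) with TMM and 0.65 corrected, outside that interval. With PBS it was 0.04 (-0.15 to 0.22) with TMM and 0.28 with total counts, also outside its interval. The bleomycin ratio was -1.51 (-1.80 to -1.25) in WT mice and -1.32 (-1.61 to -1.06) in *Hps1*-/- mice. After correction these were -1.42 and -0.72, so the call was kept in WT mice and lost in *Hps1*-/- mice.

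*Tgfb3*, the isoform known from mesenchymal cells and inflammatory T cells, had another pattern. It lies on the minus strand of chromosome 12 from 86056745 to 86079041 and was at 4.75 CPM in PBS-WT and 9.01 in PBS-HPS1, and 8.65 in BLEO-WT beside 19.7 in BLEO-HPS1. PBS-WT was lowest and BLEO-HPS1 highest under all 6 settings. With TMM, PBS-HPS1 and BLEO-WT did not differ beyond counting error (-0.09 to 0.21). With total counts the ratio to PBS-WT was 1.17 in PBS-HPS1 and 0.60 in BLEO-WT, and corrected it was 0.93 and 0.65. The genotype ratio after bleomycin was 1.18 (1.05 to 1.32), a 2.27-fold difference, and 0.88 corrected. The bleomycin ratio in *Hps1*-/- mice was 1.13 (1.0 to 1.25), and the call was lost corrected (0.60) and with total counts (0.48). The share of *Tgfb3* in the summed ligand level per kb was 1.81% in PBS-WT and 4.67% in PBS-HPS1, and 2.99% in BLEO-WT beside 4.97% in BLEO-HPS1, so it was higher in the *Hps1*-/- library of each treatment.

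The 3 genes with the pattern nearest to each ligand were found among 10202 genes with at least 10 CPM in some library, by the Euclidean distance of centred log2 CPM over the 4 libraries. For *Tgfb1* they were *Thtpa*, *Mthfd1* and *Mlx* at distances of 0.024, 0.0256 and 0.0312. For *Tgfb2* they were *Tcaf1*, *Klrk1* and *Gm26740* at 0.17, 0.267 and 0.271. For *Tgfb3* they were *Tcf21* at 0.155, *Gas1* at 0.185 and *Kirrel* at 0.203, and *Tcf21* is also in the fibroblast marker list used below. *Tcf21* itself was at 4.50, 7.42, 7.32 and 17.6 CPM. With 4 libraries, a small distance says only that levels ran side by side here.

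Of the receptors, *Tgfbr1* differed most between libraries with TMM. It encodes the type I kinase that phosphorylates SMAD2 and SMAD3 and lies on the plus strand of chromosome 4 from 47353222 to 47414931. Its level was 219.9 CPM in PBS-WT and 170.2 in PBS-HPS1, and 175 in BLEO-WT beside 54.1 in BLEO-HPS1. BLEO-HPS1 stood below the other 3 libraries, and it did so under all 6 settings, while the order of the other 3 changed with scaling and correction. The genotype ratio after bleomycin was -1.69 (-1.75 to -1.64), or 3.23-fold lower, and -0.93 corrected. The bleomycin ratio in *Hps1*-/- mice was -1.65 (-1.71 to -1.60), or 3.15-fold lower, and -0.22 corrected, so most of that ratio went away when GC content and length were corrected for.

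*Tgfbr2* and *Tgfbr3* varied little with TMM, and their ratios depended on scaling and correction. *Tgfbr2* encodes the type II kinase that binds the ligand first, lies on the minus strand of chromosome 9 from 116084293 to 116175360, and was at 408 CPM in PBS-WT and 372 in PBS-HPS1, and 470 in BLEO-WT beside 399.5 in BLEO-HPS1, a range of 1.26-fold. *Tgfbr3* encodes betaglycan, a co-receptor that presents ligand, lies on the minus strand of chromosome 5 from 107106570 to 107289629, and was at 19.8, 21.4, 25.3 and 20.9 CPM in the same order, a range of 1.28-fold. For *Tgfbr3* with TMM, BLEO-HPS1 did not differ from PBS-WT or PBS-HPS1 beyond counting error. Neither was called in any comparison under any of the 6 settings. The genotype ratio after bleomycin was -0.23 for *Tgfbr2* and -0.27 for *Tgfbr3*, and its sign turned with the correction, to 0.22 and 0.13. The bleomycin ratio in *Hps1*-/- mice was 0.10 (0.08 to 0.13) for *Tgfbr2*, 0.84 corrected, and turned sign to -0.54 with total counts. For *Tgfbr3* it was -0.03 (-0.13 to 0.07), -0.68 with total counts, and turned sign to 0.55 corrected. On the scale of CPM per kb, *Tgfbr2* was above *Tgfbr1* in every library, by 1.48-fold in PBS-WT and 1.74-fold in PBS-HPS1, and 2.14-fold in BLEO-WT beside 5.90-fold in BLEO-HPS1. Levels in CPM per kb, here and for the other genes, are without the loess correction. The bleomycin ratios of *Tgfbr2* and *Tgfbr1* in *Hps1*-/- mice, 0.10 and -1.65 with TMM, were closer together when corrected, at 0.84 and -0.22.

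Both latent binding proteins were highest in BLEO-HPS1. *Ltbp4* encodes a matrix protein that binds latent TGF-β weakly and takes part in elastic fibre assembly, and it lies on the minus strand of chromosome 7 from 27305136 to 27337692. It was at 112.5 CPM in PBS-WT and 197 in PBS-HPS1, and 116 in BLEO-WT beside 400.4 in BLEO-HPS1. Each *Hps1*-/- library was above both WT libraries under all 6 settings. The genotype ratio after bleomycin was 1.79 (1.75 to 1.82), or 3.45-fold, and 1.39 corrected, and it lay between 1.39 and 1.85 over the 6 settings. With PBS the ratio of *Hps1*-/- to WT was 0.81 (0.77 to 0.84), 0.60 corrected and 1.05 with total counts. The bleomycin ratio in *Hps1*-/- mice was 1.03 (1.0 to 1.05), and the call was lost corrected (0.52) and with total counts (0.38). In WT mice it was 0.04 (0.00 to 0.09), and it turned to -0.27 corrected and -0.22 with total counts.

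*Ltbp1* encodes the protein that ties latent TGF-β to fibrillin and fibronectin in the matrix and lies on the plus strand of chromosome 17 from 75005568 to 75392512. It was at 10.98 CPM in PBS-WT and 14.1 in PBS-HPS1, and 13.1 in BLEO-WT beside 22.7 in BLEO-HPS1. BLEO-HPS1 was highest under all 6 settings, though with total counts it was nearly level with PBS-HPS1. With TMM, PBS-HPS1 and BLEO-WT did not differ beyond counting error (-0.01 to 0.22). With total counts the ratio to PBS-WT was 0.61 in PBS-HPS1 and 0.00 in BLEO-WT. The bleomycin ratio in *Hps1*-/- mice was 0.68 (0.58 to 0.79), 0.86 corrected and 0.04 with total counts. After bleomycin, the genotype ratio was 0.79 (0.67 to 0.91), 1.73-fold, which is under the threshold, and 0.89 corrected. *Tgfb3*, *Ltbp1* and *Ltbp4* shared 1 order of the libraries with TMM, from PBS-WT through BLEO-WT and PBS-HPS1 to BLEO-HPS1. With total counts BLEO-WT was below PBS-WT for *Ltbp4*, as it was with the correction, and for *Ltbp1*, by so little that the ratio is 0.00 at 2 decimals. In CPM per kb, *Ltbp4* was above *Ltbp1* by 17.0-fold in PBS-WT and 23.0-fold in PBS-HPS1, and 14.6-fold in BLEO-WT beside 29.2-fold in BLEO-HPS1.

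The integrin subunits were not called with TMM at a prior count of 2, and some of their ratios passed the threshold under other settings. *Itgav* encodes the αv chain, lies on the plus strand of chromosome 2 from 83724397 to 83806916, and was at 43.0 CPM in PBS-WT and 39.5 in PBS-HPS1, and 60.7 in BLEO-WT beside 31.5 in BLEO-HPS1. BLEO-WT was highest under all 6 settings, and BLEO-HPS1 was lowest under all of them except the correction. The genotype ratio after bleomycin was -0.95 (-1.02 to -0.87), or 1.93-fold lower, -1.08 with total counts, which is past the threshold, and -0.20 corrected. *Itgb8* encodes the β8 chain, which pairs with αv on dendritic cells, T cells and epithelium, lies on the minus strand of chromosome 12 from 119158022 to 119238802, and had 118 reads in PBS-WT and 117 in PBS-HPS1, and 59 in BLEO-WT beside 47 in BLEO-HPS1, or 1.51, 1.18, 0.752 and 0.744 CPM. Its bleomycin ratio in WT mice was -0.98 (-1.48 to -0.55), just under the threshold, past it with DESeq2 size factors, total counts (-1.24) and a prior count of 0.5, and -0.27 corrected. With TMM, neither its PBS libraries nor its bleomycin libraries differed beyond counting error. Its genotype ratio after bleomycin was -0.02 (-0.60 to 0.56), with a sign that turned with DESeq2 size factors, to 0.04, and with the correction, to 0.83. Against PBS-HPS1 the ratio in BLEO-HPS1 was -0.33 for *Itgav* and -0.65 for *Itgb8*. Both turned sign with the correction, to 1.02 and 1.13, past the threshold on the higher side. With total counts they were -0.97 and -1.28, where *Itgb8* was past the threshold on the lower side.

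**Figure D2:**
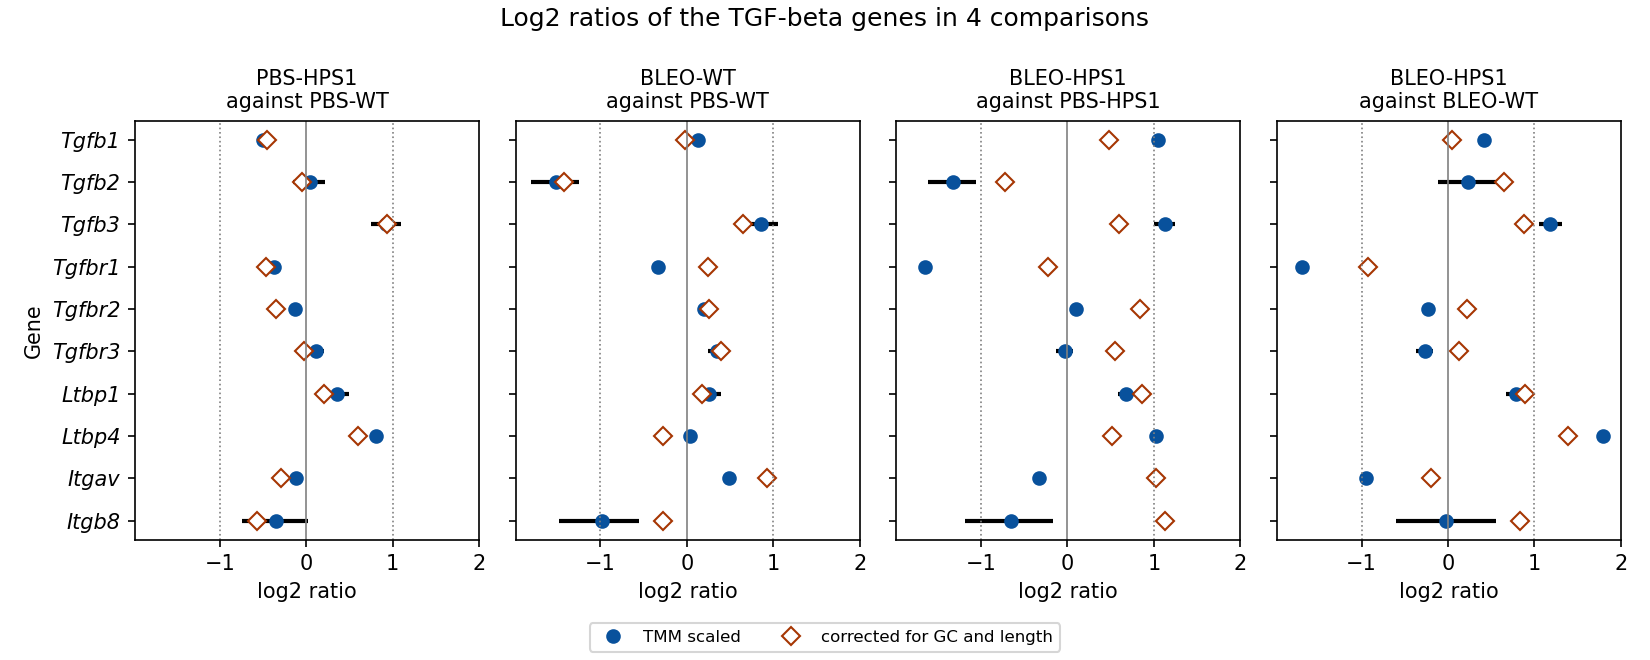
Log2 ratio of each TGF-β gene in each of the 4 comparisons, with TMM scaling (filled circles, black lines for the 95% counting interval) and after correction for GC content and length (open diamonds); dotted lines mark 2-fold. *Ltbp4* in BLEO-HPS1 relative to BLEO-WT, at 1.79 and 1.39 corrected, is past 2-fold with both, as is *Tgfb2* in BLEO-WT against PBS-WT, at -1.51 and -1.42.

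The counts per comparison were read against all genes. The comparisons share libraries, so their values stand side by side and are not independent of each other. In PBS-HPS1 against PBS-WT, which asks what the loss of *Hps1* does without injury, 0 of 10 TGF-β genes were called in either direction, where 2.16% of all genes were called higher and 3.11% lower. The largest ratios there were those of *Tgfb3* at 0.92 and *Ltbp4* at 0.81. In BLEO-WT against PBS-WT, the bleomycin response of WT mice, 0 of 10 were higher and 1, *Tgfb2*, was lower, against 5.28% and 8.22% of all genes. In BLEO-HPS1 against PBS-HPS1, the bleomycin response of *Hps1*-/- mice, 3 of 10 were higher (*Tgfb1*, *Tgfb3* and *Ltbp4*) and 2 lower (*Tgfb2* and *Tgfbr1*), against 26.2% and 19.6% of all genes, so these shares were near the background. For the bleomycin libraries, BLEO-HPS1 against BLEO-WT, which asks how the genotypes differ after injury, 2 of 10 were higher (*Tgfb3* and *Ltbp4*) and 1 lower (*Tgfbr1*), against 6.72% and 10.3% of all genes.

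After correction the counts were smaller in 4 of 8 directions and equal in 4, and the genes called were in part other genes. For PBS-HPS1 against PBS-WT they were 0 and 0 of 10, with 2.44% of all genes higher and 2.73% lower. For BLEO-WT against PBS-WT they were 0 higher and 1 lower, again *Tgfb2*, with 4.79% and 6.47% of all genes. For BLEO-HPS1 against PBS-HPS1 they were 2 higher, *Itgav* and *Itgb8*, and 0 lower, with 13.8% and 10.7% of all genes. For BLEO-HPS1 against BLEO-WT they were 1 higher, *Ltbp4*, and 0 lower, with 4.93% and 5.14% of all genes. *Ltbp4* after bleomycin and *Tgfb2* in WT mice were thus the calls made with and without the correction. The median log2 ratio of the 10 genes in BLEO-HPS1 relative to BLEO-WT was 0.11, and 0.44 corrected, beside -0.04 and -0.10 for all genes.

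The bleomycin response was set side by side between genotypes as the difference of the log2 ratios, *Hps1*-/- minus WT. Its median over all genes was 0.15 with TMM, 0.09 corrected and -0.23 with total counts. The difference was 0.98 for *Ltbp4* (counting interval 0.93 to 1.03) and 0.92 for *Tgfb1* (0.89 to 0.95), and -1.32 for *Tgfbr1* (-1.39 to -1.26). Corrected, these were 0.79, 0.50 and -0.46, and with total counts 0.60, 0.54 and -1.70. The difference of *Tgfb2* was 0.19 (-0.19 to 0.57) and that of *Itgb8* 0.33 (-0.33 to 1.0), neither beyond counting error, and both turned sign with total counts, to -0.18 and -0.03, and were 0.70 and 1.40 corrected, outside those intervals. For *Tgfb3* it was 0.26 (0.04 to 0.48) with TMM, and it turned sign to -0.05 corrected and -0.11 with total counts. *Tgfb3* was higher in the *Hps1*-/- library with PBS as well as with bleomycin.

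The sorted cells were checked against marker lists. All 13 genes of the ILC2 list were detected, among them *Gata3* at 38.4, 39.1, 25.1 and 26.9 CPM and *Il1rl1*, which encodes ST2, at 40.9, 39.9, 37.3 and 23.8 CPM. The summed level of the list was 1032, 911, 876 and 999 CPM, and without *Thy1*, its gene of highest CPM in every library, it was 725, 706, 652 and 448 CPM, lowest in BLEO-HPS1. *Rora* was at 63.9, 78.4, 25.2 and 13.2 CPM and *Il7r* at 179.6, 205.1, 149 and 76.9 CPM. Between the bleomycin libraries 8 of 12 tested genes had a ratio below 0 and the median was -0.48, while 2 genes, *Thy1* and *Klrg1*, were at least 2-fold higher and 0 lower. Corrected, the median was -0.05 and 0 were called. In BLEO-HPS1 against PBS-HPS1 the median was -0.64, with 2 higher, again *Thy1* and *Klrg1*, and 3 lower, *Rora*, *Il7r* and *Icos*, of 12 tested, where 26.2% of all genes were higher and 19.6% lower. Corrected, the median was -0.21, with 2 higher and 1 lower, of which only *Klrg1* was called before, where 13.8% and 10.7% of all genes were called. The gene for CRTH2, *Ptgdr2*, was under 1 CPM in every library. Genes of other cell types were also present, and no marker of any list was at 0 in all libraries. The summed macrophage and endothelial lists were above the ILC2 list in every library. Every other list was below it in some library, though the fibroblast list was above it in BLEO-HPS1, at 2872 CPM. The lists hold different genes, so their sums do not give shares of cells. The TGF-β levels given here are those of whole libraries and cannot be assigned to ILC2s alone. The sort gated out cells with CD3, a T cell marker, CD45R/B220, found on B cells, CD11b, found on myeloid and NK cells, Ly6G and Ly6C, found on neutrophils and monocytes, and Ly76, found on erythroid cells. The paper reports a high purity for the sorted ILC2s. The gene said below to lead a list has its highest mean CPM over the 4 libraries, without regard to length, and need not be highest in each library. Where no comparison is named, calls in these lists are those of BLEO-HPS1 against BLEO-WT, in which 6.72% of all genes were higher and 10.3% lower, and 4.93% and 5.14% corrected. In bulk RNA, fewer cells of a type and less RNA per cell cannot be told apart.

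The summed fibroblast list was highest in BLEO-HPS1, as were those for smooth muscle, endothelial, macrophage, T, B and NK cells. The summed level of the 10 fibroblast genes was 197 CPM in PBS-WT and 349 in PBS-HPS1, and 682 in BLEO-WT beside 2872 in BLEO-HPS1, and 9 of 10 were highest in BLEO-HPS1, the exception being *Pdpn*, at 101.4 CPM in BLEO-WT and 93.1 in BLEO-HPS1. *Col1a1* led the list by the mean but was highest only in BLEO-HPS1, and 8 of 10 were at least 2-fold higher in the *Hps1*-/- bleomycin library than in that of WT mice (7 corrected, 1 of them not among the 8). The smooth muscle and pericyte list, led by *Cspg4*, which was highest only in BLEO-WT, summed to 33.5, 40.6, 69.0 and 100.5 CPM, with 3 of 7 tested genes higher and 0 lower, and 2 higher and 1 lower corrected. *Cspg4* itself was at 33.1 CPM in BLEO-WT and 17.0 in BLEO-HPS1, a ratio of -0.96, and -1.12 corrected, so the higher sum of this list came from its other genes. *Tgfb1*, *Tgfb3*, *Ltbp1* and *Ltbp4* were highest in the same library. B and plasma cell genes, led by *Cd79a*, with *Jchain* above it in both PBS libraries, summed to 164, 140.1, 109.7 and 345 CPM with 5 of 7 higher (6 corrected). NK and ILC1 genes, led by *Gzma*, summed to 151, 231, 78.0 and 253 CPM with 4 of 6 higher (the same 4 corrected), and without *Gzma* the sum was highest in PBS-HPS1. T cell genes, led by *Trbc2*, summed to 734, 542, 655 and 1164 CPM with 2 of 8 higher, and 2 corrected that were other genes. The part of these cell types in the TGF-β results was not tested.

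The other lists had other patterns or few calls. Macrophage genes, led by *Csf1r* only in the mean, with *Mrc1* highest in both PBS libraries and *C1qa* in both bleomycin libraries, summed to 2590.0 CPM in PBS-WT and 1969 in PBS-HPS1, and 6873 in BLEO-WT beside 7829 in BLEO-HPS1, so the sums of both bleomycin libraries were above those of both PBS libraries. Not all genes of the list went that way. In BLEO-WT against PBS-WT 5 were higher and 1 lower (3 and 1 corrected). Of all genes, 5.28% and 8.22% were called there (4.79% and 6.47% corrected). In BLEO-HPS1 against PBS-HPS1 5 were higher and 3 lower (4 and 3 corrected). Of all genes, 26.2% and 19.6% were called there (13.8% and 10.7% corrected). *Siglecf* was at 186.2, 146.2, 41.6 and 29.0 CPM. In PBS-HPS1 against PBS-WT 0 of 10 were called, with and without the correction. Between the bleomycin libraries 0 of 10 were higher and 2 lower in BLEO-HPS1 than in BLEO-WT (2 lower corrected, 1 of them another gene). Neutrophil genes, led by *S100a9*, with *Csf3r* above it in PBS-HPS1, summed to 1256, 357, 702 and 300.3 CPM, with 4 of 5 lower in the *Hps1*-/- bleomycin library than in that of WT mice (5 corrected). In PBS-HPS1 against PBS-WT 5 of 5 were lower, with and without the correction, beside 3.11% of all genes (2.73% corrected). Epithelial genes, led by *Sftpc*, summed to 1186, 874, 693 and 508.5 CPM, with 1 of 9 lower (3 corrected). Endothelial genes, led by *Vwf*, with *Pecam1* above it in both PBS libraries, summed to 1053, 999, 1096 and 1366 CPM and had 0 of 10 called between the bleomycin libraries. Dendritic cell genes, led by *Cd209a*, summed to 152, 114, 82.7 and 89.7 CPM with 0 of 5 called (1 higher corrected), and platelet genes, led by *Pf4*, with *Itga2b* above it in both PBS libraries, to 33.9, 26.7, 46.6 and 38.1 CPM with 0 of 5 higher and 3 lower (4 corrected).

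**Figure D3:**
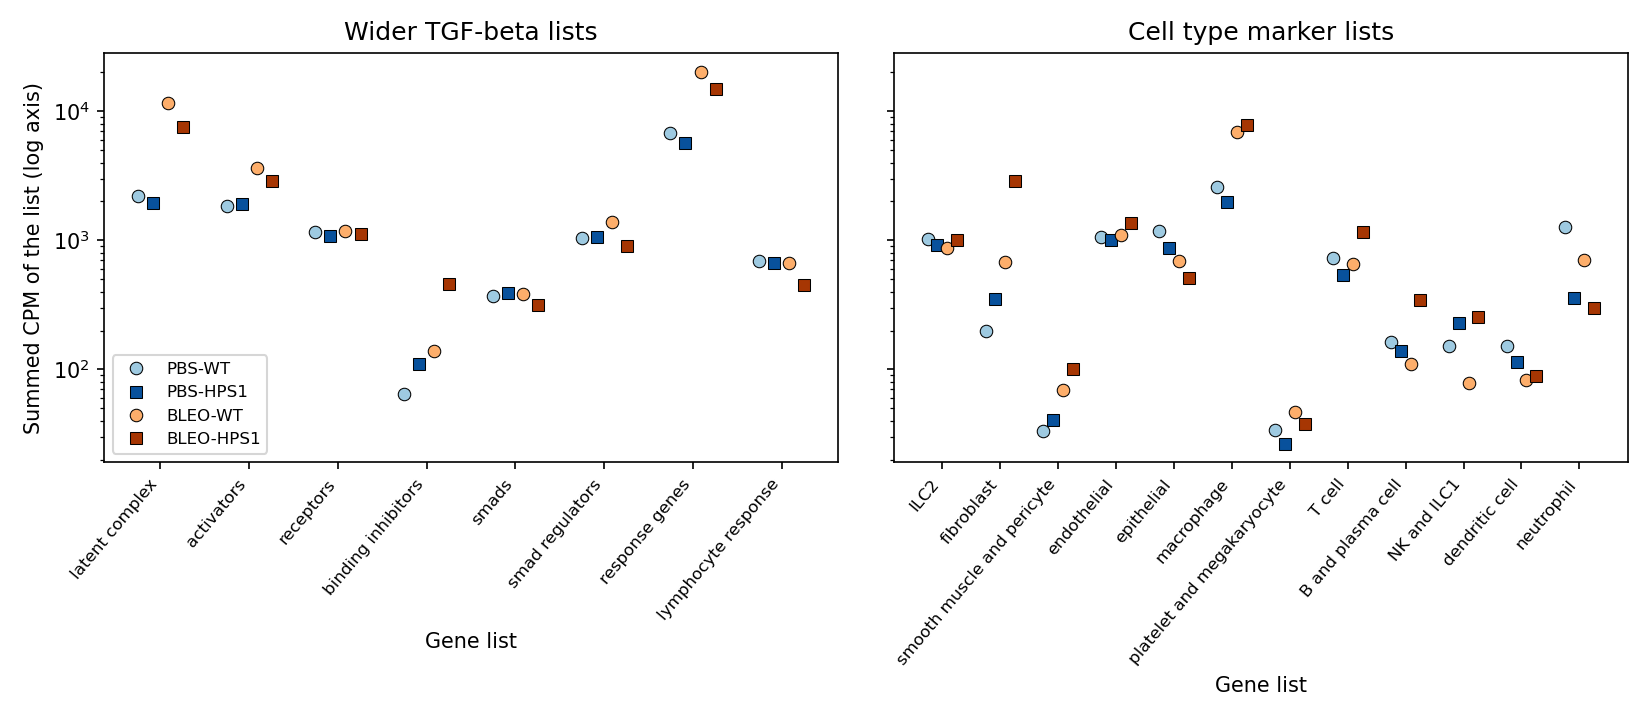
Summed CPM, on a log axis, of 8 wider TGF-β lists (left) and 12 cell type marker lists (right) in the 4 libraries, with 1 point per library. The fibroblast list reaches 682 CPM in BLEO-WT and 2872 in BLEO-HPS1, and the list of binding proteins and inhibitors of the wider TGF-β family 139 and 462.

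The wider pathway was described with 8 lists that hold 84 genes beside the 10, of which 79 passed the filter. In BLEO-HPS1 relative to BLEO-WT, 16 of them (20.3%) were higher, beside 6.72% of all genes, and 9 (11.4%) lower, beside 10.3%, and corrected 14 (17.7%) and 1 (1.27%), beside 4.93% and 5.14%. In BLEO-HPS1 against PBS-HPS1 26 (32.9%) were higher and 16 (20.3%) lower, beside 26.2% and 19.6% of all genes, and corrected 24 (30.4%) and 3 (3.80%), beside 13.8% and 10.7%. In this last comparison the shares were thus nearer to those of all genes without the correction than with it. In BLEO-WT against PBS-WT 19 (24.1%) were higher and 3 (3.80%) lower, beside 5.28% and 8.22% of all genes, and corrected 24 (30.4%) and 2 (2.53%), beside 4.79% and 6.47%. In PBS-HPS1 against PBS-WT 5 (6.33%) were higher and 1 (1.27%) lower, beside 2.16% and 3.11% of all genes, and corrected 4 (5.06%) and 1 (1.27%), beside 2.44% and 2.73%. Most of the genes called lower in BLEO-HPS1 were thus called without the correction and not with it.

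Among the genes of the latent complex and its matrix anchors, 3 of 9 were higher in the *Hps1*-/- bleomycin library than in that of WT mice and 0 lower, with and without the correction. Besides *Ltbp4* these were *Ltbp2*, at 7.44, 11.2, 20.2 and 49.0 CPM, and *Fbn1*, the fibrillin on which latent complexes are laid down, at 14.4, 33.6, 40.1 and 118 CPM. Their ratios were 1.28 and 1.56, and 1.08 and 1.96 corrected. *Fn1*, the fibronectin gene and the gene of highest CPM of the list in every library, had a different pattern, at 1432, 1058, 10590.0 and 5995 CPM, with the higher bleomycin level in WT mice.

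Of the 15 tested genes that encode activating integrins, thrombospondin and proteases, 2 were higher in the *Hps1*-/- bleomycin library than in that of WT mice and 1 lower, with and without the correction. *Mmp2*, a gelatinase, was at 7.34 CPM in PBS-WT and 12.6 in PBS-HPS1, and 38.0 in BLEO-WT beside 172 in BLEO-HPS1. *Bmp1*, which cleaves latent binding proteins, was at 6.53, 9.71, 10.7 and 38.7 CPM. *Thbs1*, which encodes thrombospondin 1, an activator of latent TGF-β and the gene with the highest mean CPM of this list, though not the highest in PBS-WT or BLEO-HPS1, was at 464, 784, 1215 and 492 CPM. *Mmp2* and *Bmp1* were highest in BLEO-HPS1, with ratios to BLEO-WT of 2.18 and 1.86, while *Thbs1* was highest in BLEO-WT, with a ratio of -1.30, and these were 1.76, 1.61 and -1.04 corrected.

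Binding proteins and inhibitors of the wider TGF-β family, not all of which act on TGF-β itself, had the largest share of higher genes. Of 8 tested, 7 were higher in BLEO-HPS1 relative to BLEO-WT and 5 corrected, with 0 lower. *Dcn*, a proteoglycan that binds TGF-β and is also in the fibroblast list, was at 12.2, 26.0, 24.0 and 111 CPM. *Bgn*, the gene of highest CPM of the list in every library, was at 40.8, 67.1, 93.1 and 312 CPM. Their ratios were 2.21 and 1.74, and 2.92 and 1.46 corrected. *Fmod* was at 0.629, 2.50, 1.61 and 8.07 CPM, *Fstl3* at 0.629, 1.42, 2.12 and 5.92 CPM, and *Lefty1* at 0.577, 0.858, 1.85 and 5.37 CPM. The ratios were 2.31, 1.47 and 1.52, of which only that of *Fmod* was past 2-fold when corrected, at 1.95.

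Receptors of the family had 0 of 11 higher and 3 lower in BLEO-HPS1 relative to BLEO-WT, and 0 and 0 corrected. Beside *Tgfbr1*, the lower genes were *Bmpr2*, at 106.8, 119.7, 64.8 and 29.5 CPM, and *Acvr2a*, at 11.5, 14.2, 8.49 and 4.19 CPM. Their ratios were -1.13 and -1.01, and -0.30 and -0.24 corrected. Of the SMAD genes 0 of 7 tested were called, with *Smad7*, an inhibitory SMAD and the gene with the highest mean CPM among them, though below *Smad3* in BLEO-HPS1, at 77.4, 80.3, 91.4 and 60.6 CPM. Of 14 SMAD regulators 4 were lower and 0 higher, and 0 were called when corrected. These were *Skil*, a repressor that binds SMADs, at 166.5, 223, 160.1 and 48.1 CPM, and the ubiquitin ligases *Smurf2* at 77.8, 82.3, 82.6 and 39.3 CPM, *Trim33* at 59.2, 57.5, 32.7 and 15.1 CPM and *Wwp1* at 36.0, 36.1, 36.3 and 13.1 CPM. The ratios were -1.73, -1.07, -1.12 and -1.47, and -0.93, -0.62, -0.32 and -0.66 corrected. *Ski*, the regulator of highest CPM in every library, was at 269.6, 256, 463 and 310.1 CPM.

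Of 20 genes known to respond to TGF-β, 5 were higher and 1 lower in BLEO-HPS1 relative to BLEO-WT. Corrected, 5 were higher and 0 lower, but not the same 5: *Tagln* was no longer called, and *Postn*, at 15.5, 20.7, 7.38 and 10.5 CPM, was called, with a ratio of 0.51 and 1.23 corrected. The higher genes were *Acta2* at 4.73, 6.58, 6.47 and 25.6 CPM, *Ccn2* (named Ctgf in the table) at 10.96, 24.2, 23.6 and 62.5 CPM, *Tagln* at 1.82, 2.63, 2.78 and 7.30 CPM, *Tnc* at 2.30, 4.19, 11.6 and 26.5 CPM, and *Ltbp2*, and the lower gene was *Skil*. The ratios of *Acta2*, *Ccn2*, *Tagln* and *Tnc* were 1.98, 1.40, 1.38 and 1.19, and 1.71, 1.24, 0.86 and 1.34 corrected. *Acta2* and *Tagln* are also in the smooth muscle list, which was highest in the same library. Genes that lymphocytes change in response to TGF-β had 1 of 9 higher and 2 lower, and 1 and 0 corrected. *Zfp683*, a residency factor, was at 4.18, 4.59, 3.06 and 10.4 CPM, *Rgs1* at 208.7, 208.9, 250.4 and 102 CPM, and *Ahr*, the aryl hydrocarbon receptor, at 49.6, 38.0, 30.0 and 14.2 CPM. Their ratios were 1.75, -1.29 and -1.08, and 1.05, -0.55 and -0.57 corrected.

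Promoter sequences are shown for both latent binding proteins, which were highest in the same library, and for *Tgfbr1*, which was lowest in it. RefSeq promoter windows of GRCm38.p6 were found for 8 of the 10 genes, and where a gene has several starts the window farthest upstream was taken. Each is 300 bases on the gene's own strand. The motifs searched on both strands were GGGCGG (the GC box), CAGAC (the CAGA box that SMADs can bind) and TGANTCA (a site of AP-1). They are in 35.7%, 49.6% and 7.81% of 32851 windows, and matches to different motifs did not overlap in the windows shown. Capitals mark the matches.
Ltbp4, chr7:27337563-27337862, minus strand: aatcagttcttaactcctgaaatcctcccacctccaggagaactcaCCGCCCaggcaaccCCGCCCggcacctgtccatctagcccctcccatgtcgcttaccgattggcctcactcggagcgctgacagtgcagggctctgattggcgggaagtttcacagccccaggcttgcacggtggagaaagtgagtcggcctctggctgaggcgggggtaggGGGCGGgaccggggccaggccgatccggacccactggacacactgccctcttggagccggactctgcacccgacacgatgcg
Ltbp1, chr17:75005279-75005578, plus strand: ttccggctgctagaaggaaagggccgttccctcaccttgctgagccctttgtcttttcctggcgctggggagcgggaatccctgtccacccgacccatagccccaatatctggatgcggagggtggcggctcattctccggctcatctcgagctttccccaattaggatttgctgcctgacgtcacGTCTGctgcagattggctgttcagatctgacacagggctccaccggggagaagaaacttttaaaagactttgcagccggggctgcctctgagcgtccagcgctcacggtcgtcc
Tgfbr1, chr4:47352972-47353271, plus strand: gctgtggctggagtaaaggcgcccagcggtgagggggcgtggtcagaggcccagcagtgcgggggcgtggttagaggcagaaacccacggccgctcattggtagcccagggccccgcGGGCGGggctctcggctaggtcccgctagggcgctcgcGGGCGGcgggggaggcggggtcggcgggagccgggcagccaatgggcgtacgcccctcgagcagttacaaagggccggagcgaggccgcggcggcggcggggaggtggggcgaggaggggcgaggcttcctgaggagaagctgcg
*Ltbp4* had 3 matches to GGGCGG and 0 to the other motifs, *Ltbp1* had 1 match to CAGAC and 0 to the others, and *Tgfbr1* had 2 matches to GGGCGG and 0 to the others. The windows hold 64.3%, 58.7% and 74.7% G and C, where the median of all windows is 52.7%. No motif was shared by the *Ltbp4* and *Ltbp1* windows, and the *Tgfbr1* transcript, low in GC, has a window high in GC. A match describes letters only and says nothing of binding.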

How the data were processed

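Raw read counts per gene, deposited by the authors, were used for 4 libraries of sorted and cultured mouse lung ILC2s, 1 per group, and how the reads were aligned and counted is not given in the sources used here. The members and lists were chosen with earlier results of these data known. Counts were scaled with TMM in edgeR 4.0.16 (R 4.3.3) to CPM, with log2 ratios at a prior count of 2. Genes had to reach 1 CPM in some library (14840 did), and calls needed a 2-fold ratio. Counting intervals, tables and figures were made in Python 3.11.15 with pandas 2.3.3, SciPy 1.17.1 and matplotlib 3.10.9, and the interval of a difference of ratios was taken from the normal distribution on log counts. The correction was a loess fit (span 0.3) on GC content and length of GENCODE M21 transcripts (GRCm38), fitted on 11133 genes with a mean log2 CPM over 2. The code was tested on simulated data. Genes named from the wider lists are those at least 2-fold apart between the bleomycin libraries with at least 5 CPM in either, and the gene of highest mean CPM of each list, which also holds for the cell type lists. *Postn*, *Pdpn*, *Siglecf*, the genes said to be above a list's leading gene in a library and, of the ILC2 list, *Gata3*, *Il1rl1*, *Ptgdr2*, *Rora*, *Il7r*, *Icos* and *Klrg1* were named after their values were seen. Alternatives were DESeq2 1.42.0 size factors, total counts, fold thresholds of 4 and 1.5, prior counts of 0.5 and 10, all genes without a filter, and only genes with 10 or more counts in each library. No p-value was computed, as there are no replicates.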

Additional observations from a re-analysis of the deposited data

Results flagged for a closer look

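With TMM, 2 of the TGF-β genes, *Itgav* and *Tgfbr3*, had bleomycin ratios of opposite sign in the 2 genotypes. Which genes do so depends on the setting: at 2 decimals they were *Tgfb1*, *Tgfbr3*, *Ltbp4* and *Itgav* with total counts, and *Tgfb1*, *Tgfbr1*, *Ltbp4* and *Itgb8*, without either of these 2, after correction for GC content and length. The log2 ratio of *Itgav* was 0.49 in WT mice and -0.33 in *Hps1*-/- mice, a difference of -0.82. It was 0.93 and 1.02 after correction, where both are higher, and 0.23 and -0.97 with total counts, where the signs again differ. The log2 ratio of *Tgfbr3* was 0.35 in WT mice and -0.03 (-0.13 to 0.07) in *Hps1*-/- mice, a difference of -0.38. The value in *Hps1*-/- mice is within counting error of 0. It was 0.39 and 0.55 corrected and 0.09 and -0.68 with total counts. With 1 library per group the differences were not tested.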

How the results depend on the processing

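No paired analysis was possible because each group has 1 library and all replicate numbers are 1. Counts of TGF-β genes past the threshold were recomputed under each alternative, among them the correction for GC content and length, and of 72 values 49 were equal to the count reported and 23 differed, 5 of them within 1.5 times of it. In PBS-HPS1 against PBS-WT, higher genes were 0, and 2 with total counts and 2 at a fold threshold of 1.5. In BLEO-WT against PBS-WT, higher genes were 0, and 1 at 1.5-fold. Lower genes were 1, and 2 with DESeq2 size factors, 2 with total counts, 2 with a prior count of 0.5, 2 at 1.5-fold and 0 at 4-fold. In BLEO-HPS1 against PBS-HPS1, higher genes were 3, and 0 with total counts, 2 corrected (*Itgav* and *Itgb8*, neither among the 3), 4 at 1.5-fold and 0 at 4-fold. Lower genes were 2, and 3 with total counts, 0 corrected, 3 at 1.5-fold and 0 at 4-fold. In BLEO-HPS1 against BLEO-WT, higher genes were 2, and 1 corrected, 3 at 1.5-fold and 0 at 4-fold. Lower genes were 1, and 2 with total counts, 0 corrected, 2 at 1.5-fold and 0 at 4-fold. These counts stand beside shares of all genes that change too. With total counts 3.92% of all genes were higher and 2.02% lower in PBS-HPS1 against PBS-WT, 3.24% and 12.9% in BLEO-WT against PBS-WT, 9.33% and 33.3% in BLEO-HPS1 against PBS-HPS1, and 5.14% and 14.6% in BLEO-HPS1 against BLEO-WT. At 1.5-fold the shares were 5.88% and 9.80%, 13.9% and 16.4%, 39.4% and 28.1%, and 19.4% and 25.2% in the same order. At 4-fold they were 0.276% and 1.0%, 1.14% and 1.82%, 4.37% and 5.49%, and 1.5% and 0.418%. In BLEO-WT against PBS-WT the lower share was 8.52% with DESeq2 size factors and 8.38% with a prior count of 0.5. A 4-fold threshold leaves fewer genes and a 1.5-fold threshold more by construction, and for the other changes the cause was not tested. The filters moved no count. Of 40 log2 ratios, taken at 2 decimals, the sign changed for 6 with total counts, 11 corrected, 1 with DESeq2 size factors and 0 with other prior counts, and 1 more, that of *Ltbp1* in BLEO-WT against PBS-WT, became 0.00 with total counts. Of 10 differences between the bleomycin ratios, it changed for 3 with total counts and 4 corrected. Depth limits *Itgb8* most, with 47 to 118 reads per library.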
